A study of Mus musculus with 6 samples.

Results

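The genes described here are 7 enzymes of cholesterol synthesis, Hmgcs1, Idi1, Fdft1, Sqle, Lss, Cyp51 and Dhcr7. They were taken by symbol from the gene counts of 6 RNA-seq libraries, and all 7 were found among 32531 listed genes and passed the filter on low counts, which 16991 genes passed. No receptor or carrier for cholesterol uptake is among them, so uptake was read from other genes of the pathway. The libraries come from the hypothalamus of untreated adult control mice of the line Lhx5-TRAP DT154, which carries a ribosomal protein L10a fused to EGFP (EGFP/Rpl10a) under the name of the LIM-homeodomain gene Lhx5. In translating ribosome affinity purification (TRAP), antibodies to EGFP pull down the tagged ribosomes with the RNA they hold, so that RNA being translated in the tagged cells is enriched. The IP group is this pulled-down RNA (3 libraries), and the unbound group, whose titles call it input, is the RNA labelled as unbound (3 libraries), with the same line, tissue and lack of treatment in both groups. The labels and the design text do not give how the transgene is driven, the sex of the animals, their exact age or the number pooled for a library. The labels also do not say that replicates came from separate animals, so p-values measure the spread between these libraries, which may be technical.

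Cholesterol does not cross from the blood into the brain in amounts that matter, so brain cells make their own. Synthesis runs from acetyl-CoA through mevalonate and isoprenoid units to squalene, which is closed into lanosterol and then trimmed to cholesterol. The transcription factor SREBP2, the product of Srebf2, switches the genes of this route on together when sterols in the membrane of the endoplasmic reticulum run low. Astrocytes and myelin-forming oligodendrocytes are known as strong producers in the adult brain, and neurons can also take up cholesterol that glia release on lipoproteins.

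Reads counted to genes ran from 32471045 to 46293837 per IP library and from 32926146 to 40768577 per unbound library. Astrocyte, oligodendrocyte and microglia markers had median log2 differences of -3.04, -3.59 and -3.21 in IP against unbound RNA, and 13 of 14, 14 of 14 and 11 of 12 tested members of these lists fell. Their summed levels did not overlap between groups, at 548 to 843 CPM in IP and 2308 to 2512 CPM in unbound for astrocytes, 361 to 611 and 3851 to 7346 CPM for oligodendrocytes, and 11.9 to 31.8 and 104 to 161 CPM for microglia, and no marker of these 3 lists was at 0 in an IP library. Pan-neuronal markers had a median of 0.67, with 13 of 20 higher and 1 lower, and sums of 24012 to 25182 CPM in IP and 15928 to 17253 CPM in unbound. Of 6 markers of Lhx5-type hypothalamic neurons 5 rose, with a median of 4.07 and sums of 807 to 932 CPM in IP against 114 to 220 CPM in unbound. Most of each sum was Slc17a6, at 669, 591 and 534 CPM in IP and 124, 105 and 195 CPM in unbound replicates 1 to 3. Over all genes tested, 21.1% rose and 23.2% fell. Precursor, vascular and ependymal or tanycyte markers fell in 6 of 8, 7 of 10 and 7 of 8 tested genes, and Cldn5, Cdh5, Rarres2 and Rax were at 0 in at least 1 IP library. The groups are fractions split by the pull-down of tagged ribosomes. These differences therefore do not measure the number of cells of a type or their RNA per cell. Unbound replicate 3 stood apart from the other unbound libraries, with 7346 CPM of oligodendrocyte markers against 4036 and 3851 CPM.

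Of the 7 enzymes, 1 fell in IP RNA, Lss, and 0 rose. In the fit blocked on the replicate number, 2 fell, Lss and Hmgcs1, where 23.6% of all genes fell and 23.3% rose. Levels are in CPM, gene counts scaled to a common library size after adjustment by the trimmed mean of M-values, and a gene was called at an adjusted p under 0.05 in the quasi-likelihood test of edgeR, adjusted by Benjamini-Hochberg over all genes tested. Over all genes 44.3% were called, 21.1% as higher and 23.2% as lower. At an unadjusted p under 0.05 the number of enzymes higher was also 0, as was the number higher by adjusted p in DESeq2 (18.1% of all genes higher, 24.0% lower) and in limma-voom (21.4% higher, 23.6% lower), both of which called Lss alone of the 7, as lower. The median log2 fold change of the 7 was -0.04, beside -0.01 over all genes tested, and their values ran from -0.92 for Lss to 0.40 for Sqle. The 7 summed to 403 ± 34.1 CPM in IP libraries and 430 ± 76.6 CPM in unbound libraries (SD, n = 3 each). That sum was 400, 439 and 371 CPM in IP replicates 1 to 3 and 385, 387 and 519 CPM in unbound replicates 1 to 3, so the groups overlapped.

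**Figure D1:**
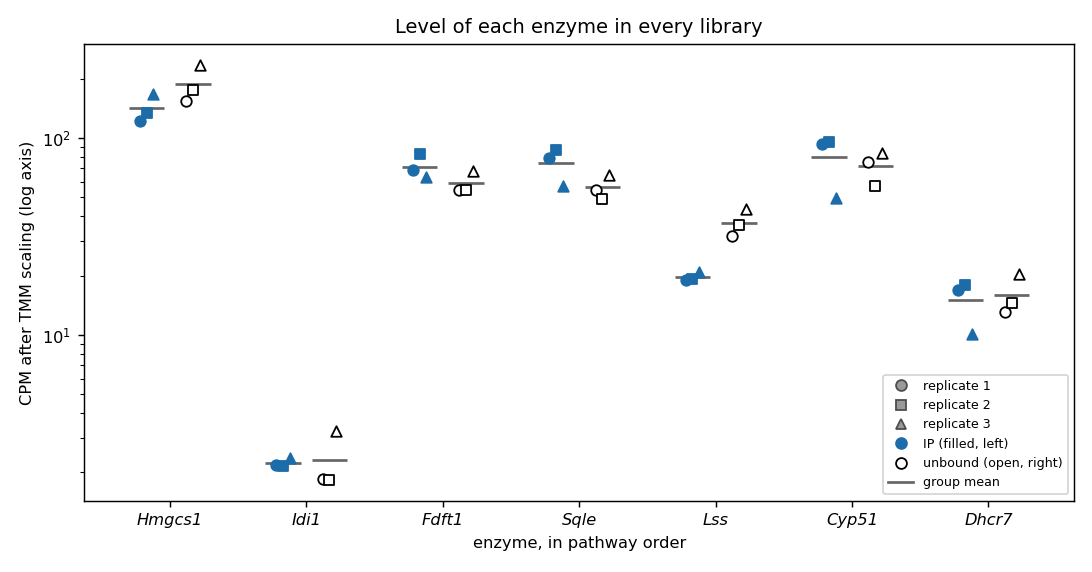
Level of each enzyme in every library, in CPM on a log axis. Filled symbols on the left of each pair are IP and open symbols on the right are unbound libraries, the shape gives the replicate and the bar the group mean. Lss is the enzyme whose groups do not overlap, at 18.9 to 20.8 CPM in IP and 31.8 to 43.6 CPM in the unbound libraries.

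Hmgcs1 encodes the cytosolic HMG-CoA synthase, an early enzyme of the mevalonate steps, and lies at chr13:119690379-119708260 on the plus strand (mm10). It was the most abundant of the 7, at 121, 134 and 168 CPM in IP replicates 1 to 3 and 153, 174 and 235 CPM in unbound replicates 1 to 3. The groups overlapped, since IP replicate 3 lay above unbound replicate 1. Gm48342, an antisense gene that is not among the genes listed in the counts, shares 16% of the exon bases of Hmgcs1. The log2 fold change was -0.41 ± 0.19 (SE; 95% interval -0.85 to 0.03; adjusted p = 0.117, edgeR, Benjamini-Hochberg). Within each replicate number the IP library was the lower one, by -0.34, -0.38 and -0.49 on the log2 scale. With the replicate number as a block, Hmgcs1 passed as lower (-0.40, adjusted p = 0.0190 in the same edgeR test, where 23.3% of all genes were higher and 23.6% lower). Without unbound replicate 3 it was at -0.22 (adjusted p = 0.301, edgeR), and leaving out each library in turn gave -0.52 to -0.22. Hmgcs1 made up 35.4% ± 8.53 of the summed CPM of the 7 in IP and 43.4% ± 3.12 in unbound RNA (SD, n = 3 each), shares that overlapped, since IP replicate 3 stood at 45.2% and unbound replicates 1 and 2 at 39.8% and 45.0%.

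Idi1, the isomerase that interconverts the 2 isoprenoid building blocks, lies at chr13:8885501-8892451 on the plus strand. It was the least abundant, with 67 to 107 reads per IP library and 63 to 135 per unbound library. The levels were 2.19, 2.15 and 2.38 CPM in IP and 1.85, 1.83 and 3.24 CPM in unbound replicates 1 to 3, with unbound replicate 3 the highest of all 6. Its log2 fold change of -0.04 had a wide interval, -0.83 to 0.74. Reads that align to several places were not counted. Of the stretches of 50 bases in Idi1 transcripts, 28.6% also occur, on either strand, in transcripts of other annotated genes, Gm13502 and Gm48574 among them. Gm48574 overlaps Idi1 on the opposite strand and shares 10.7% of its exon bases, and a stretch shared with Gm48574 alone can still align to a single place. The part of Idi1 lost to multiple alignment is therefore not known, and this level is uncertain.

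Fdft1 and Sqle carry out consecutive steps, the joining of farnesyl units into squalene and its epoxidation. Fdft1 (chr14:63145150-63179578, minus strand) stood at 68.5, 82.4 and 63.0 CPM in IP and 54.6, 54.4 and 68.0 CPM in unbound replicates 1 to 3. Sqle (chr15:59315077-59331192, plus strand) stood at 78.9, 86.9 and 57.1 CPM in IP and 54.6, 49.1 and 64.6 CPM in unbound replicates 1 to 3. For both genes IP replicates 1 and 2 lay above every unbound library while IP replicate 3 lay below unbound replicate 3. The log2 fold changes were 0.27 ± 0.16 for Fdft1 (SE; 95% interval -0.083 to 0.63; adjusted p = 0.188) and 0.40 ± 0.18 for Sqle (SE; 95% interval -0.013 to 0.82; adjusted p = 0.104, edgeR, Benjamini-Hochberg). Exons of Ctsb, the gene of the lysosomal protease cathepsin B on the opposite strand, share 20.9% of the exon bases of Fdft1. Ctsb itself rose by 0.75 (log2), and reads of the shared bases cannot be assigned without strand. Of the stretches of 50 bases in Fdft1 transcripts, 30.7% also occur, on either strand, in transcripts of Ctsb or Gm6781. The part of Fdft1 lost to multiple alignment is not known. The Fdft1 values carry these limits. Those of Sqle, which shares no exon bases and no stretch of 50 bases with another gene, do not.

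Lss, lanosterol synthase, closes the ring system of squalene epoxide and lies at chr10:76531588-76557138 on the plus strand. Its levels were 18.9, 19.3 and 20.8 CPM in IP replicates 1 to 3 and 31.8, 36.1 and 43.6 CPM in unbound replicates 1 to 3. Every IP library lay below every unbound library, and the IP libraries lay close to one another. Lss was the 1 enzyme of 7 whose groups did not overlap, where 55.9% of all genes tested did not, 27.1% with IP above and 28.7% with IP below. Within the replicate numbers the differences were -0.75, -0.90 and -1.07 (log2). The antisense gene 4930483K19Rik, which shares 8.16% of the exon bases of Lss, had 0 counts in all libraries. Lss was 1.89-fold lower in IP RNA, a log2 fold change of -0.92 ± 0.16 (SE; 95% interval -1.28 to -0.56; adjusted p = 0.00213, edgeR, Benjamini-Hochberg). It passed as lower in each of the 19 alternative fits, at -1.50 to -0.79 (adjusted p 3.8e-06 to 0.0378 over edgeR, DESeq2 and limma-voom, Benjamini-Hochberg). The replicates of number 2 were sequenced in lane 4 and the others in lane 2, and within lane 2 the value was -0.92 (adjusted p = 0.0378, edgeR, Benjamini-Hochberg), where 7.49% of all genes were called higher and 14.7% lower, while lane 4 holds 1 library per group. Summed astrocyte and oligodendrocyte markers were also lower in IP, by more than Lss, and their part in the Lss difference was not tested.

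Cyp51 and Dhcr7 act late in the route, Cyp51 by removing a methyl group from lanosterol and Dhcr7 as the reductase that yields cholesterol or desmosterol. Cyp51 (chr5:4081145-4104746, minus strand) stood at 93.2, 95.9 and 49.7 CPM in IP and 75.7, 57.0 and 83.7 CPM in unbound replicates 1 to 3. Dhcr7 (chr7:143823145-143848410, plus strand) stood at 16.9, 17.9 and 10.2 CPM in IP and 13.004, 14.6 and 20.3 CPM in unbound replicates 1 to 3. In both genes IP replicate 3 was the lowest of all 6 libraries, and for Dhcr7 unbound replicate 3 was the highest. The log2 fold changes over all libraries were 0.14 ± 0.26 for Cyp51 (SE; 95% interval -0.45 to 0.73; adjusted p = 0.681) and -0.09 ± 0.26 for Dhcr7 (SE; 95% interval -0.68 to 0.50; adjusted p = 0.791, edgeR, Benjamini-Hochberg). Exons of Akap9, a gene on the opposite strand that fell by 0.92 on the log2 scale, share 4.22% of the exon bases of Cyp51.

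Promoter windows of the enzymes were searched for elements known from sterol-responsive genes. RefSeq promoter windows (GRCm38.p6, 250 bases before to 50 after a start) were at hand for 5 of the 7 genes, Hmgcs1, Idi1, Lss, Cyp51 and Dhcr7, the last with 3 starts. The 250 bases before the start are shown for Hmgcs1 as the most abundant enzyme, for Lss as the one that fell and for Cyp51 as one whose replicates spread most, at chr13:119690101-119690350 (plus strand), chr10:76531355-76531604 (plus strand) and chr5:4104698-4104947 (minus strand). Each is written 5′ to 3′ on the gene's strand, with capitals for TCACNCCA, the core of the sterol regulatory element that SREBP2 binds, and for CCAAT, the box of the factor NF-Y, on either strand.
Hmgcs1: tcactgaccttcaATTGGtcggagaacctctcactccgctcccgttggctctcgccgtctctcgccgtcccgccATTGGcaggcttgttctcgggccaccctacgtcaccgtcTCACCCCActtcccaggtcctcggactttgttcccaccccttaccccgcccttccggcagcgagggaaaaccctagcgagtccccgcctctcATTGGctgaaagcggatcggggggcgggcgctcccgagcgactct
Lss: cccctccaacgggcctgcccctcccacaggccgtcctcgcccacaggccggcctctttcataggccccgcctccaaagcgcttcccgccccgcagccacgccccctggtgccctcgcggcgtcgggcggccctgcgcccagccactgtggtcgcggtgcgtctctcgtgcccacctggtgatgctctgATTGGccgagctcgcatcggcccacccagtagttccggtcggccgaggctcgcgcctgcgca
Cyp51: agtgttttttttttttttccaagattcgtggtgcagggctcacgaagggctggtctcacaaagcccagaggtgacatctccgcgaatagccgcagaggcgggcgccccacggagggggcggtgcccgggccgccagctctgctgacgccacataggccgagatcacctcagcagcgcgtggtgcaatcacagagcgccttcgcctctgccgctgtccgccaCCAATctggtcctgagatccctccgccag
In the full windows of 300 bases, TCACNCCA occurred in 1 of the 7 promoters, that of Hmgcs1 at position -137 from the RefSeq start, and in 4.36% of 32851 promoters of the same length. CCAAT occurred in 5 of 7 and in 37.4% of all, and GGGCGG, the GC box of Sp1, in 6 of 7 and in 35.7% of all, each searched on both strands and with no overlap between motifs in these genes. The promoter of Lss held 1 CCAAT box, at -62, and that of Cyp51 held 1 at -29. These are matches of letters and do not show that a factor binds.

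Levels between genes were compared per kilobase of exon. CPM were divided by the merged length of the exons of the gene's protein-coding transcripts in the basic set of the annotation. In IP RNA Hmgcs1 was first at 40.5 ± 6.91 CPM per kb, then Sqle at 26.9 ± 5.58, Cyp51 at 20.2 ± 6.6, Fdft1 at 19.3 ± 2.7, Dhcr7 at 4.53 ± 1.27, Lss at 4.22 ± 0.21 and Idi1 at 0.74 ± 0.04 CPM per kb (SD, n = 3). The libraries of Sqle, Cyp51 and Fdft1 overlapped in this order, as did those of Dhcr7 and Lss. In unbound RNA Hmgcs1 stood at 53.9 ± 12.2 CPM per kb, Sqle at 20.4 ± 2.86, Cyp51 at 18.4 ± 3.49 and Fdft1 at 16.0 ± 2.1 CPM per kb (SD, n = 3). There Lss, at 7.97 ± 1.28 CPM per kb, lay above Dhcr7, at 4.82 ± 1.16 CPM per kb (SD, n = 3), without overlap of their libraries, and Idi1 was again last at 0.76 ± 0.27 CPM per kb (SD, n = 3).

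Set against the mean of the other 6 enzymes within the same library, a value that library scaling hardly touches, 3 of the 7 enzymes did not overlap between the groups. The same held for 49.4% of all genes set against the mean of the 7 in this way, so the count is not above the background. On the scale log2(CPM + 1), Lss stood at -0.98, -1.06 and -0.58 relative to the others in IP replicates 1 to 3 and at -0.04, 0.18 and -0.01 in unbound replicates 1 to 3. Sqle stood at 1.36, 1.41 and 1.07 in IP and at 0.85, 0.68 and 0.64 in unbound replicates 1 to 3, and Fdft1 at 1.12, 1.32 and 1.23 against 0.85, 0.85 and 0.73. Lss was thus lower and Sqle and Fdft1 were higher, relative to the other enzymes, in each IP library than in any unbound library. These 3 results are not independent, since the mean set against Sqle and Fdft1 includes Lss and its fall raises their ratios. On their own, Sqle and Fdft1 had log2 fold changes of 0.40 and 0.27, and neither passed. The IP minus unbound differences were -0.92 for Lss, 0.55 for Sqle and 0.42 for Fdft1, each with an exact two-sided permutation p of 0.1, the smallest that 3 against 3 libraries can give, and 0.233 adjusted over the 7 enzymes. The other 4 overlapped, with differences from -0.36 for Hmgcs1 to 0.22 for Cyp51.

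The replicates of number 3 differed from the other pairs. Within numbers 1 and 2, the IP library was the higher one for 5 of the 7 enzymes (Idi1, Fdft1, Sqle, Cyp51 and Dhcr7), and within number 3 for 0 of 7, where over all genes the shares were 50.5%, 50.5% and 49.0%. Cyp51 went from 0.30 and 0.75 (log2 IP minus unbound) within numbers 1 and 2 to -0.75 within number 3, and Dhcr7 from 0.38 and 0.30 to -1.002. Sqle went from 0.53 and 0.82 to -0.18. Unbound replicate 3 was the highest unbound library for 7 of 7 enzymes, beside 49.3% of all genes. IP replicate 3 was the lowest IP library for 4 of 7 (Fdft1, Sqle, Cyp51 and Dhcr7), beside 35.4%, and the highest for the other 3.

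**Figure D2:**
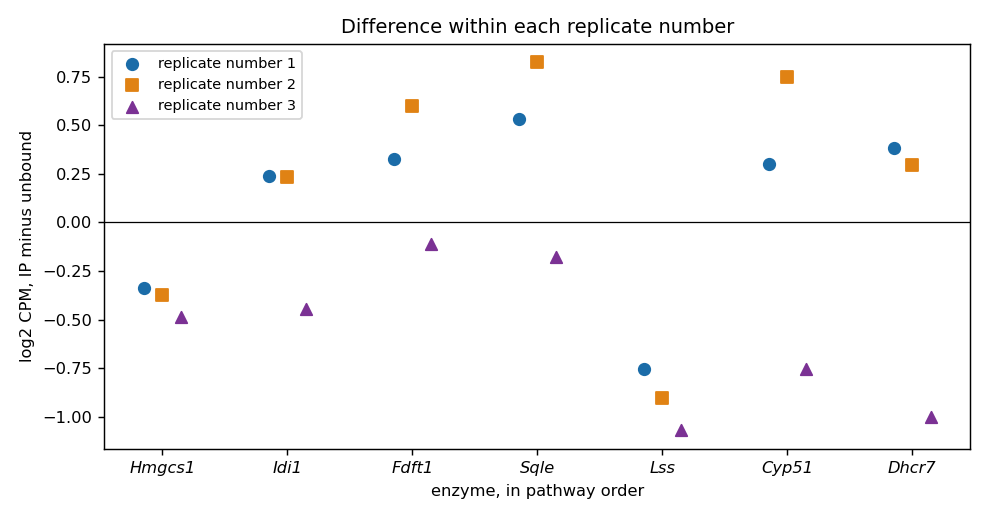
Difference in log2 CPM, IP minus unbound, within each replicate number, 1 point per number and enzyme. Hmgcs1 and Lss lie below 0 in all 3 numbers, and for the other 5 enzymes numbers 1 and 2 lie above 0 and number 3 below it.

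Without the libraries of number 3, Sqle (0.66, adjusted p = 0.00171), Cyp51 (0.49, adjusted p = 0.0170) and Fdft1 (0.45, adjusted p = 0.0155) passed as higher in the edgeR test. Lss (-0.85, adjusted p = 0.00117) and Hmgcs1 (-0.38, adjusted p = 0.0263, same edgeR test) passed as lower, so that 5 of 7 were called where 53.4% of all genes were, 26.0% higher and 27.3% lower. Of these calls, Lss and Sqle also passed without IP replicate 3 alone and without unbound replicate 3 alone. Sqle was then at 0.59 (adjusted p = 0.0141) and 0.51 (adjusted p = 0.0381, same edgeR test). Sqle did not pass without IP replicate 1 or 2 (adjusted p = 0.222 and 0.293, edgeR). Nor did it pass without unbound replicate 1 or 2 (adjusted p = 0.150 and 0.270, edgeR). The same number 3 held the unbound library with the most oligodendrocyte marker RNA, 7346 CPM. Its IP library had the least, 361 CPM, beside 398 and 611 CPM in IP replicates 1 and 2. Unbound replicate 3 also stood apart in markers of other lists, some picked here after their values were seen. Against unbound replicates 1 and 2, Crym was at 1.51 against 47.3 and 46.1 CPM and Syt1 at 504 against 1084 and 1303 CPM. Lhx1 was at 12.6 against 1.83 and 1.39 CPM. The part of these differences in the enzyme values was not tested.

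Other lists of the pathway were counted in the same way, without the 7 enzymes. Of the 9 other genes that turn lanosterol into cholesterol, 5 had the IP library higher within numbers 1 and 2 and lower within number 3, and 7 had both IP replicate 3 as the lowest IP library and unbound replicate 3 as the highest unbound library, beside 8.19% and 13.8% of all genes. Over all 18 other synthesis genes these counts were 5 and 8, and among the 6 other genes from acetyl-CoA to farnesyl pyrophosphate 0 and 0, although unbound replicate 3 was the highest unbound library for 5 of those 6. Part of this order was shared with genes outside synthesis. IP replicate 3 was the lowest IP library for 9 of 11 genes of uptake and handling, 7 of 8 of efflux and turnover and 7 of 9 regulators. Over all genes the share was 35.4%. Unbound replicate 3 was the highest unbound library for 6, 3 and 4 genes of these lists, beside 49.3% of all genes. Both held for 6, 2 and 2 genes, beside 13.8%. Whether these lists differ from one another in this order was not tested.

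Of the other 18 synthesis genes 3 rose, 3 fell and 12 did not pass, with a median log2 fold change of 0.15, where 21.1% of all genes rose and 23.2% fell, so these counts are no larger than the background. Pmvk, phosphomevalonate kinase, rose from 46.8 ± 9.79 to 72.3 ± 6.79 CPM (SD, n = 3 each), a log2 difference of 0.63. Dhdds, a subunit of the enzyme that makes dolichol chains from the same isoprenoid units, rose by 0.50 (log2), and Erg28, a scaffold of the sterol enzymes counted under its older symbol 0610007P14Rik, by 0.53 (log2). These 3 calls were lost, among other settings, in the lane 2 libraries alone, without IP replicate 1 (Pmvk 0.61, Dhdds 0.48, Erg28 0.43) and without unbound replicate 2 (0.51, 0.42 and 0.46). Under pan-neuronal scaling Pmvk was at 0.05, Dhdds at -0.08 and Erg28 at -0.06. Dhdds passed in 12 and Erg28 in 10 of 19 alternative fits. Hsd17b7, a keto-reductase of sterol demethylation, had the smallest adjusted p of these 18 genes and fell by 1.04 on the log2 scale, from 51.8 ± 7.47 to 25.2 ± 0.92 CPM (SD, n = 3 each). Mvd, the decarboxylase that ends the mevalonate steps, fell by 0.85 on the log2 scale and Lbr, a sterol reductase that is also a nuclear membrane protein, by 0.99, with 12.5% of the exon bases of Lbr shared with Dnah14 on the opposite strand. Hsd17b7 passed in all 19 alternative fits and Mvd in 17, not in lane 2 or without IP replicate 1 (-0.76). Lbr passed in 14, and not without IP replicate 1, 2 or 3, in lane 2 or without the number 3 libraries (-0.59 to -1.57 over all fits).

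**Figure D3:**
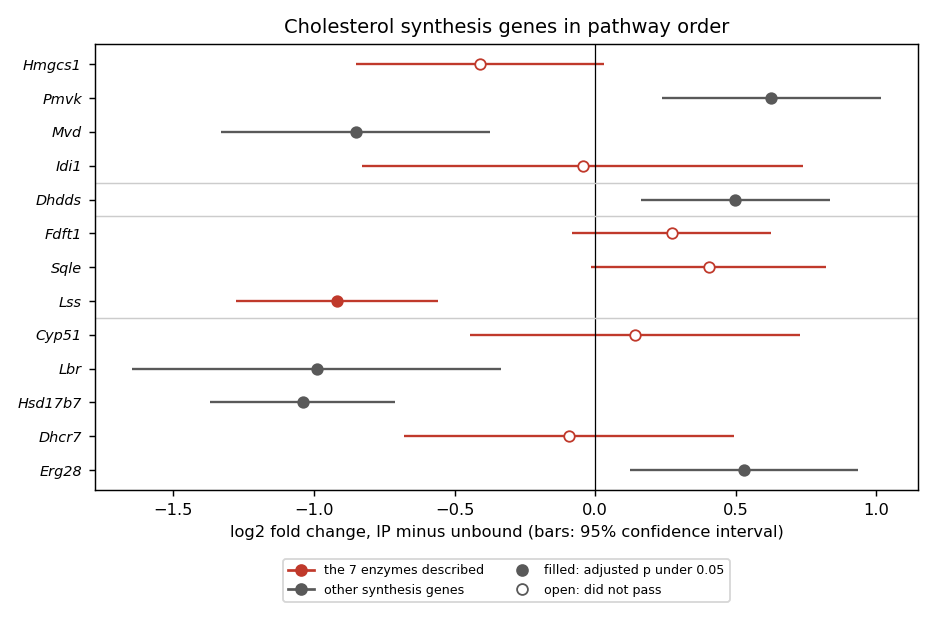
Log2 fold change, IP minus unbound, of 13 synthesis genes, the 7 enzymes and the 6 others that passed, from acetyl-CoA at the top to cholesterol at the bottom, with 95% confidence intervals. The 7 enzymes are in red, filled points passed the test, and grey lines divide the stages. Lss at -0.92 is the filled red point, and 3 other genes fell and 3 rose.

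Of 9 regulators, beside the same shares of all genes, 7 did not pass, 1 rose, Nr1h2, the oxysterol receptor LXR-beta (0.64), and 1 fell, Srebf1, the gene of SREBP1, which acts mainly on fatty acid synthesis (-1.29). The call of Nr1h2 was lost in lane 2, without unbound replicate 2 (0.58) and under pan-neuronal scaling (0.06). Srebf2 stood at 90.0, 88.6 and 68.2 CPM in IP and 75.7, 85.4 and 75.8 CPM in unbound replicates 1 to 3, groups that overlapped (log2 0.06 ± 0.15, SE; adjusted p = 0.768, edgeR, Benjamini-Hochberg).

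Among 11 genes of uptake and intracellular handling 6 fell, 1 rose and 4 did not pass, with a median of -0.77, where 23.2% of all genes fell and 21.1% rose. Scarb1, a receptor for high-density lipoprotein, had a log2 difference of -0.96. Vldlr (-0.80), Lrp1 (-0.79), Lrp8 (-0.66) and Npc1 (-0.94, with 11.5% of exon bases shared with genes on the opposite strand), named after their values were seen, fell as well. Lipa, the lysosomal lipase that frees cholesterol from its esters, rose by 0.45 (log2), a call lost under library size alone, in lane 2 and without IP replicate 2 (0.41) or unbound replicate 2 (0.40), and with the direction turned under pan-neuronal scaling (-0.14). Of 8 tested genes of efflux and turnover 5 fell and 3 did not pass, with a median of -0.82, beside the same 23.2% of all genes that fell. Abca1, an exporter of cholesterol to lipoproteins, fell by 1.57 on the log2 scale and Cyp27a1, a mitochondrial sterol hydroxylase, by 3.48, and Soat1, Apoe and Cyp7b1, named after their values were seen, also fell, Cyp7b1 in 13 of 19 alternative fits, and not without IP replicate 1 or 3 or without unbound replicate 1 or 2. Ch25h, with at most 12 reads in a library, was not tested. Glial marker RNA was lower in IP beside all these groups, and its part in their differences was not tested.

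**Figure D4:**
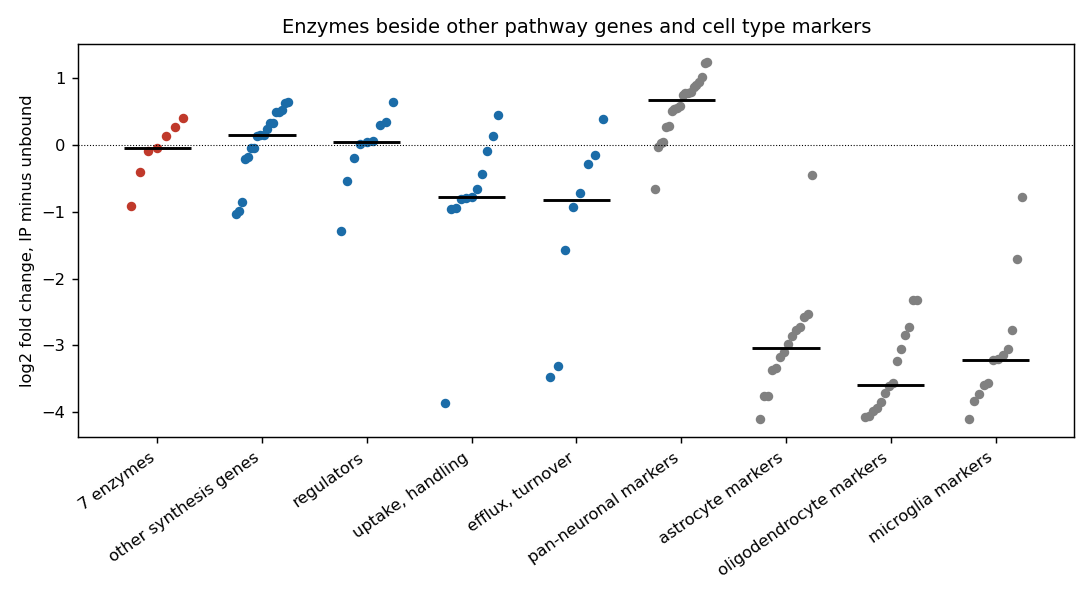
Log2 fold change of each tested gene by list, IP minus unbound, with a bar at the list median. The 7 enzymes and the other synthesis genes have medians of -0.04 and 0.15, the uptake and efflux lists of -0.77 and -0.82, and astrocyte, oligodendrocyte and microglia markers of -3.04, -3.59 and -3.21.

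How high or low the enzymes stood relative to neuronal RNA depended on the scale. When libraries were scaled on the pan-neuronal markers, the median of all genes moved to -0.60, calls over all genes went from 3586 higher and 3943 lower to 695 higher and 7758 lower, and 3 of 7 enzymes were called lower, Lss (-1.50), Hmgcs1 (-0.99) and Dhcr7 (-0.68), where 45.7% of all genes were and 4.09% were higher. Relative to that median, which the change of scale moves together with the enzymes, they were at -0.90 for Lss, -0.39 for Hmgcs1, -0.08 for Dhcr7, -0.02 for Idi1, 0.15 for Cyp51, 0.28 for Fdft1 and 0.41 for Sqle.

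Among the genes whose profile over the 6 libraries lay closest to the mean profile of the 7 enzymes were Srgap2, Mipol1, Rbm3 and Uso1, of 10556 genes compared at a mean of at least 5 CPM. Likeness was the root mean square distance of log2 CPM after centring on each gene's mean, and was 0.044, 0.052, 0.058 and 0.063 for these genes. The 7 enzymes themselves lay 0.18 (Dhcr7) to 0.43 (Lss) from their own mean profile.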

How the data were processed

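RNA-seq of 3 IP and 3 unbound libraries was deposited as raw read counts per gene symbol, one table a library. The submitters' processing notes name STAR 2.0.0e, HTSeq and the mm10 build as the authors' tools. Annotation, strand setting and overlap mode: not given in the sources used here. The deposited counts end with 5 summary rows and an unknown row, which were left out of library sizes and tests. Reads ambiguous between genes made up 1.58% to 1.64% of IP and 7.08% to 9.02% of unbound reads listed, and reads aligning to several places 43.8% to 45.0% and 31.8% to 32.9%, so genes that overlap or have near copies are undercounted to different degrees. Replicates of a group differed by chi-square values of 24.4 to 145 per degree of freedom, far above counting noise.

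All genes were fitted together with edgeR 4.0.16 in R 4.3.3 (TMM, filterByExpr with a minimum count of 10 and a total of 15, robust quasi-likelihood fit on group alone, Benjamini-Hochberg over 16991 genes, threshold 0.05). SE was taken as the absolute log2 fold change over the root of the F statistic. The test was checked on simulated data. Positions, exon lengths and overlaps came from GENCODE M21 (GRCm38, the same assembly as mm10), and Erg28 was matched by its older symbol in RefSeq. Exon bases of a pathway gene were those of its protein-coding transcripts in the basic set, and overlaps were taken with all exons of other genes. Alternatives used DESeq2 1.42.0, limma-voom 3.58.1, other scalings and filters, lane, a replicate block, and libraries left out. The enzymes, lists and alternatives were chosen with earlier results of these data known. Genes were named by rule: the 7 enzymes, in each role the 2 with the smallest adjusted p and those called against its main direction, Srebf2, and genes of closest profile. Some genes that the rule names are not reported here. Lbr and others said to be were named after their values were seen.

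Replicate numbers are shared between groups. Deviations from the group means of same-numbered IP and unbound libraries correlated over genes at 0.14, 0.16 and 0.21, above the 0.1 required, so the numbers may pair the libraries. No label states the pairing, and neither the reported edgeR test nor the permutation test uses it. The fit with the numbers as a block stands as an alternative, beside the counts it changes.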

Additional observations from a re-analysis of the deposited data

How the results depend on the processing

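Of the 19 alternatives, 16 left the number of enzymes lower in IP at 1, with 2 under the replicate block, 2 without the number 3 libraries and 3 under pan-neuronal scaling. The number higher was 0 in 16 of 19, 3 without the number 3 libraries, and from 0 to 1 when single libraries were left out. The block changed no other enzyme call. The median log2 fold change of the 7 enzymes was -0.62 under pan-neuronal scaling and 0.32 without number 3, and -0.15 to 0.25 with single libraries left out, the highest without unbound replicate 3. Over all genes, pan-neuronal scaling gave 695 higher and 7758 lower, the lane 2 libraries 1297 and 2538, and single libraries left out 2489 to 4139 and 3263 to 4448. Of the other pathway genes, 46 tested in the reported fit, 2 were higher under library size alone, where 2850 of 16991 genes were. Higher calls numbered 0 under pan-neuronal scaling (4.09% of all genes), 0 in lane 2 (7.49%) and 11 without number 3 (26.0%). With single libraries left out they numbered 0 to 8. Lower calls numbered 24 under pan-neuronal scaling, beside 45.7% of all genes, and 12 to 16 with single libraries left out. The cause of these changes was not tested, though lane 2 and the fits without libraries use fewer samples.

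Directions of genes that had not passed turned as follows (log2). Under pan-neuronal scaling Fdft1 was at -0.32, Sqle at -0.19, Cyp51 at -0.45 and Srebf2 at -0.53. There Srebf2 passed as lower (adjusted p = 0.0148 in edgeR), as did 5 of 9 regulators in all, beside 45.7% of all genes. Under library size alone Srebf2 was at -0.040. Idi1 was at 0.013 with no count filter, 0.0033 with the replicate block, 0.22 without number 3 and -0.18 to 0.28 with single libraries left out. Cyp51 was at -0.15 in lane 2 and at -0.0021 to 0.42 with single libraries left out. Dhcr7 was at 0.32 without number 3 and at -0.23 to 0.16 with single libraries left out. Idi1, with 63 to 135 reads a library, is the enzyme whose value depth limits most.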
